A study of Mus musculus with 10 samples.

Results

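Kinesins and cytoplasmic dynein are the motors that carry organelles, vesicles, receptors and RNA along microtubules. The genes described here are those annotated as protein-coding whose names begin with Kif or Klc and a digit, with Dync1, or with Dctn and a digit, and whose mean over all libraries reached 0.5 FPKM (a level per gene length and library total). Of the 52636 genes in the deposited table, 54 matched these names and 39 of them reached that level. The 39 comprise 23 kinesin motors, the 4 kinesin light chains, 5 subunits of dynein-1, 6 subunits of dynactin, and Kif1bp, a kinesin-binding protein that is not a motor and entered by its name. Hippocampal RNA was sequenced from Tshr-/- mice, which lack the thyrotropin receptor (5 libraries), and from wild-type (WT) mice (5 libraries), all of the C57BL/6 strain and 3 months old. The labels call the libraries biological replicates. They do not say whether each is 1 mouse, which part of Tshr was deleted, whether littermates were used or whether thyroid hormone was given.

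Most kinesins walk toward the plus end of a microtubule, which in axons lies away from the cell body, and dynein-1 with its activator dynactin walks back. A kinesin motor is driven by ATP, bound in a glycine-rich loop of the motor domain, the P-loop. Hippocampal neurons depend on these motors to supply synapses far from the nucleus, since vesicle precursors, mitochondria and neurofilaments are made or assembled in the cell body. Other kinesins act in cell division or in motile cilia, and in adult hippocampus such transcripts come from few cells.

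The P-loop is shown because it is the part that the kinesins of this group share and because it shows which of them depart from the common form. A stretch of 24 coding bases was read for each of the 23 kinesins from the longest coding transcript of GENCODE vM21 (GRCm38, the assembly named mm10). The pattern searched was a glycine codon, 4 codons of any kind, then glycine, lysine and either threonine or serine, and it was found in all 23. In 19 of them the first glycine is followed by codons for glutamine and threonine, the usual kinesin form. The exceptions were Kif19a, Kif22, Kif26a and Kif26b. Capitals mark the codons that fit the usual form in Kif5c, Kif1a and Kif16b, and the codons fixed by the wider pattern in Kif26b and Kif26a.
Kif5c: GGGCAGACTtcatcaGGAAAAACT
Kif1a: GGGCAGACGggggccGGCAAGTCC
Kif16b: GGGCAAACTggatctGGAAAGTCC
Kif26b: GGCcatgccaagctaGGGAAATCC
Kif26a: GGCcacatgagcctcGGCAAATCA

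These windows lie at chr2:49680203-49680226 for Kif5c (plus strand), chr1:93077739-93077762 for Kif1a (minus) and chr2:142857332-142857355 for Kif16b (minus). The window of Kif26b is joined across an intron between chr1:178869424-178870604 and that of Kif26a between chr12:112173419-112173745, both on the plus strand. Kif26a and Kif26b share 15 of the 24 bases. Over all pairs of the 22 windows outside chromosome 18, identity ran from 10 to 22 bases and no window occurred more than once. Kif26a and Kif26b are known as atypical kinesins.

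The libraries held 23899650 to 33529811 rebuilt reads. The deleted gene Tshr drew 7 reads in all from Tshr-/- libraries and 32 from WT libraries, too few to check each label, and reads from an undeleted part would check nothing. Hippocampal identity was seen in the summed markers of dentate granule neurons, at 109 to 142 FPKM in Tshr-/- and 157 to 207 FPKM in WT, and of CA1 pyramidal neurons, at 129 to 211 FPKM in Tshr-/- and 186 to 253 FPKM in WT. Libraries also stood apart in neighbouring tissue. The 13 choroid plexus markers summed to 2626 FPKM in Tshr-/- library 4 and to 33.8 to 138 FPKM in the other 9. The 14 thalamus and habenula markers summed to 184 and 314 FPKM in Tshr-/- libraries 1 and 2. They summed to 108 and 159.5 FPKM in WT libraries 2 and 5, and to 25.1 to 62.0 FPKM in the other 6. Their sums averaged 132 ± 117 FPKM in Tshr-/- and 72.2 ± 59.2 FPKM in WT (SD, n = 5 each). Mean log2 levels were higher in Tshr-/- for 13 of 13 measured thalamus and habenula markers and 10 of 11 choroid plexus markers. Of all 15471 tested genes, 7227 were higher. No marker on these lists was at 0 in all 10 libraries. In bulk tissue, fewer cells of a type and less RNA per cell cannot be told apart.

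No motor or dynactin gene passed the test between genotypes. Limma on log2(FPKM + 0.1), adjusted over all 15471 genes with a mean of at least 0.5 FPKM, called 0 of the 39 at an adjusted p below 0.05, against 2 genes in the whole table (0.0129%). At an unadjusted p below 0.05 limma gave 3 of the 39, or 7.69%, against 13% of all tested genes. The 3 were Kif26b and Klc2, lower in Tshr-/- as were 8.38% of all tested genes at that level, and Kif16b, higher in Tshr-/- as were 4.65%. Limma voom on the rebuilt reads also called 0 of the 39 and 2 genes in the whole table (0.0129%), and it gave 3 of the 39 at an unadjusted p below 0.05, against 13.4% of all tested genes. The 39 split into 21 with a higher and 18 with a lower estimate in Tshr-/-, while 53.3% of all tested genes had a lower one. Their median log2 difference was 0.02 against -0.01 over all tested genes, and their median absolute log2 difference was 0.06 against 0.10. These comparisons were not matched for level. Of the 39, 24 had a mean of at least 10 FPKM, against 5.05 FPKM for the median tested gene.

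The precision of these estimates bounds the differences that could have gone unseen. Half-widths of the 95% intervals had a median of 0.16 on the log2 scale. For 28 of the 39 genes the whole interval lay within a 1.25-fold difference in either direction, and for 37 it lay within 1.5-fold. The exceptions at 1.5-fold were Kif9 and Klc3, both near 1 FPKM. Fold changes on the log2(FPKM + 0.1) scale understate differences of genes at such low levels. In the plot of genotype differences, the interval of each gene can be read against 0.

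**Figure D1:**
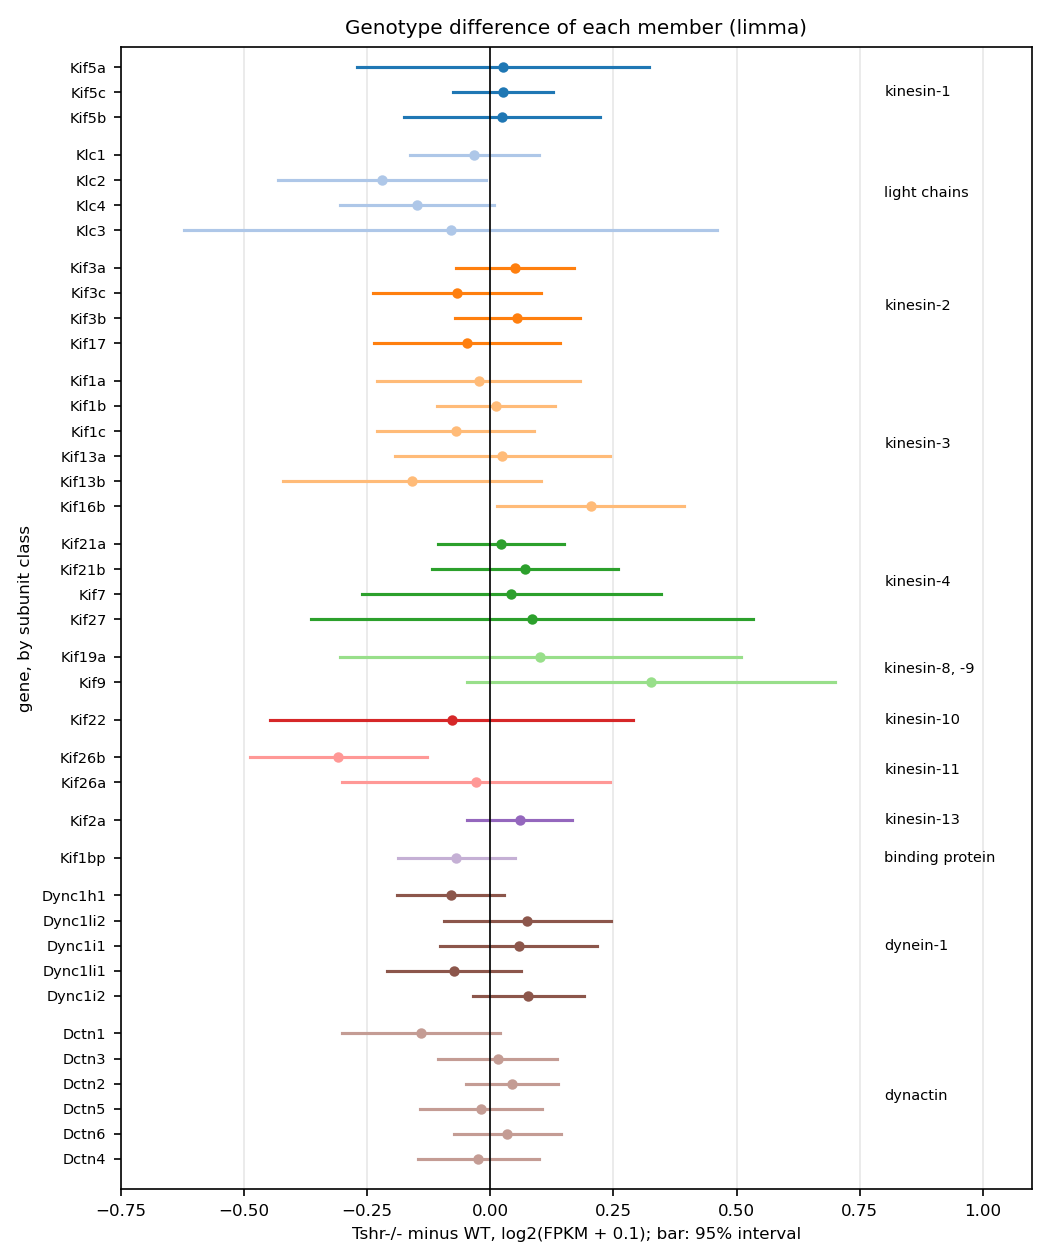
Difference Tshr-/- minus WT on the log2(FPKM + 0.1) scale (x axis) for each of the 39 genes (y axis), grouped by subunit class. Points are limma estimates from 5 libraries a genotype and bars are 95% intervals. The intervals of Kif26b, Klc2 and Kif16b leave 0, none with an adjusted p below 0.05.

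Levels spanned a wide range, as the plot of levels shows. Of the 39 genes, 24 had a mean of at least 10 FPKM and 8 were below 2 FPKM, while the median tested gene stood at 5.05 FPKM. Kif5a was highest and ranked 69 among all 15471 tested genes, followed by Klc1 at 139, Kif1a at 265 and Kif5c at 286. The gene nearest above the limit of 0.5 FPKM was Kif27, with a mean of 0.586 FPKM over all libraries, and the nearest below it was Kif6, at 0.441 FPKM.

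**Figure D2:**
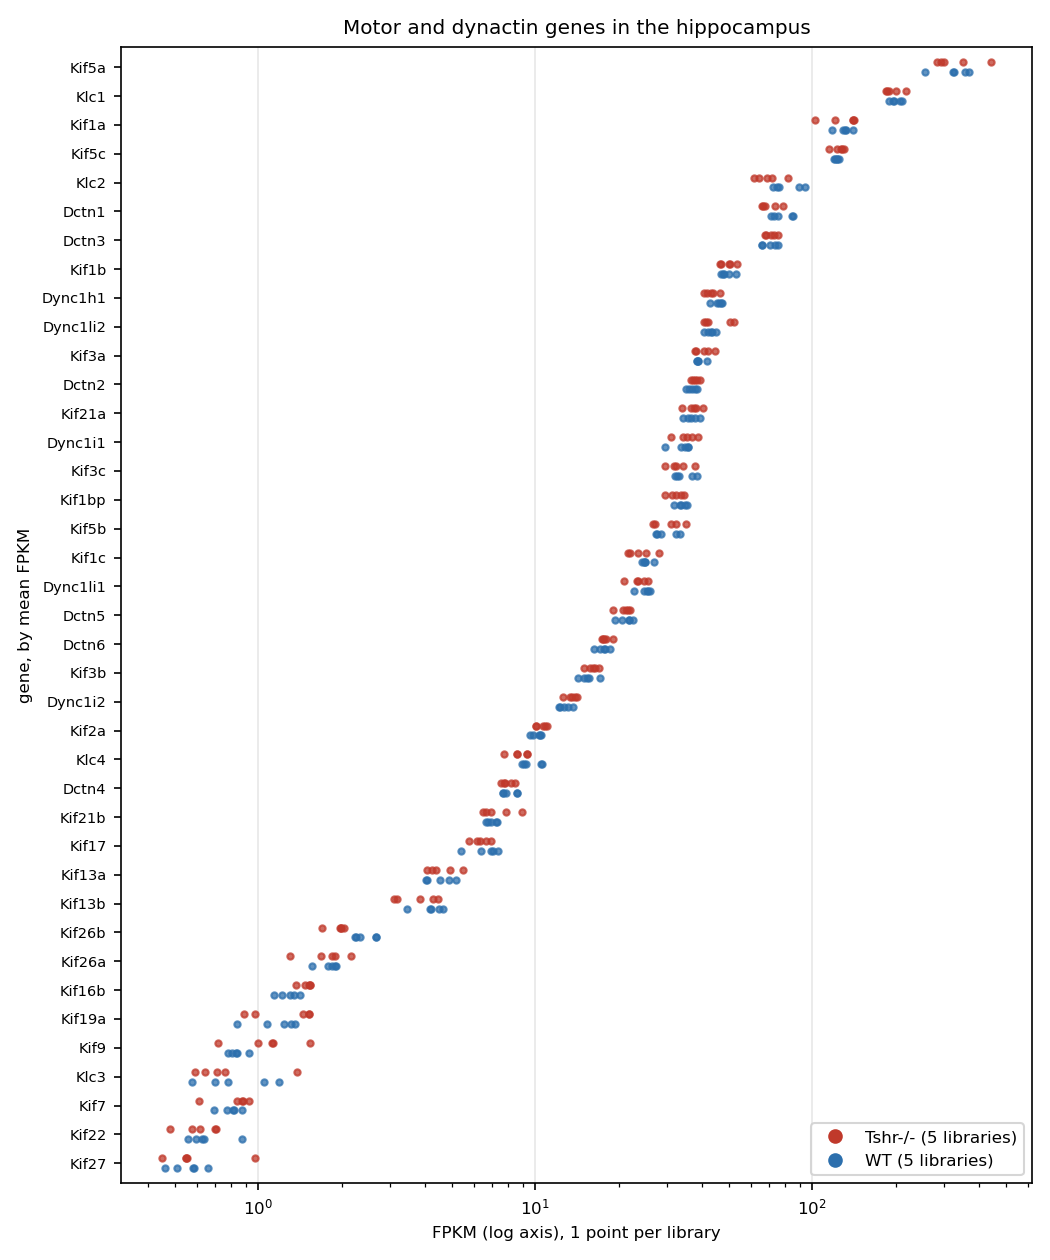
FPKM on a log axis (x) for the 39 genes (y), ordered by mean. Each point is 1 library, Tshr-/- in red above WT in blue. Kif5a lies at 256 FPKM or more in every library and Kif27 at 0.974 FPKM or less, and only Kif26b shows genotypes that do not overlap.

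Kinesin-1, the main fast anterograde motor of axons, is built from heavy chains of the Kif5 genes and light chains of the Klc genes that bind cargo. None of its 7 genes was called. Kif5a (ENSMUSG00000074657, chr10:127225696-127263348, minus strand), the neuronal heavy chain that also moves neurofilaments, had 349, 292, 299, 283 and 441 FPKM in Tshr-/- libraries 1 to 5 and 322, 324, 367, 256 and 355 FPKM in WT libraries 1 to 5. The genotypes overlapped, with the highest library in Tshr-/- and the lowest in WT. The log2 difference was 0.03 ± 0.13 (SE, limma adjusted p = 0.955). Kif5c (ENSMUSG00000026764, chr2:49619298-49774778, plus strand), the second neuronal heavy chain, varied far less. It had 128, 115, 127, 123 and 129.9 FPKM in Tshr-/- and 123, 125, 123, 120.0 and 121 FPKM in WT, where its coefficient of variation was 1.59%, against 13.3% for Kif5a in the same WT libraries. Its log2 difference was 0.03 ± 0.05 (SE, limma adjusted p = 0.849). Kif5b, the heavy chain found in most cell types, averaged 30.3 ± 3.59 FPKM in Tshr-/- and 29.8 ± 2.83 FPKM in WT (SD, n = 5 each).

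All 4 light chain genes had lower estimates in Tshr-/-, 0 of them called. Klc1 (ENSMUSG00000021288, chr12:111758849-111807844, plus strand) is the neuron-enriched light chain and the most abundant. It had 189, 185, 200.3, 186 and 218 FPKM in Tshr-/- and 210.2, 195, 208, 189 and 197 FPKM in WT. Its highest library was in Tshr-/-, the genotypes overlapped, and the log2 difference was -0.03 ± 0.06 (SE, limma adjusted p = 0.853). Klc2 (ENSMUSG00000024862, chr19:5107746-5118560, minus strand), a light chain found in many tissues, had 64.4, 68.8, 71.8, 61.9 and 81.8 FPKM in Tshr-/- and 89.5, 74.5, 94.4, 72.5 and 75.7 FPKM in WT. Tshr-/- library 5 lay above 3 WT libraries, and WT libraries 1 and 3 stood highest. The log2 difference was -0.22 ± 0.10 (SE, 95% interval -0.43 to -0.01, limma adjusted p = 0.369). Summed CA1 markers were 253 and 249 FPKM in WT libraries 1 and 3, the highest of the 10. They were 146, 129 and 131 FPKM in Tshr-/- libraries 1, 2 and 4, the lowest 3, which were also the lowest 3 for Klc2. WT library 4 went otherwise. Its CA1 markers summed to 241 FPKM, while its Klc2 was the lowest in WT and below that of Tshr-/- library 5. The part of CA1 neurons in the Klc2 values was not tested. Klc4 averaged 8.71 ± 0.663 FPKM in Tshr-/- and 9.67 ± 0.781 FPKM in WT (log2 difference -0.15 ± 0.07 SE, limma adjusted p = 0.407). Klc3, known from sperm tails, averaged 0.817 ± 0.323 FPKM in Tshr-/- and 0.857 ± 0.253 FPKM in WT. Its locus overlaps that of Ercc2 on the opposite strand (5.87 FPKM). Since the library kit does not mark strand, reads from any exon bases shared by such a pair cannot be told apart. Overlaps were taken over whole gene spans, and shared exons were not checked.

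Within families, the mix of paralogues was nearly the same in both genotypes for heavy chains. Kif5a made up 67.9% ± 3.19 of the summed Kif5 FPKM in Tshr-/- and 67.9% ± 2.86 in WT, Kif5c 25.9% ± 2.74 and 25.8% ± 2.45, and Kif5b 6.29% ± 0.859 and 6.28% ± 0.637 (SD, n = 5). Among the light chains, the shares of Klc1 and Klc2 lay apart between the genotypes by a small margin. Klc1 made up 70.1% to 72.1% of the summed Klc FPKM in the Tshr-/- libraries and 66.3% to 69.8% in the WT libraries, without overlap. Klc2 made up 24.01% to 26.4% in Tshr-/- and 26.6% to 30.2% in WT, also without overlap, as must nearly follow when 2 genes hold almost the whole sum. Of 19 such shares in 7 families these were the only 2 whose genotypes did not overlap. The shares are a description and were not tested, and Klc1 shares its locus with Xrcc3 on the opposite strand (3.28 FPKM).

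**Figure D3:**
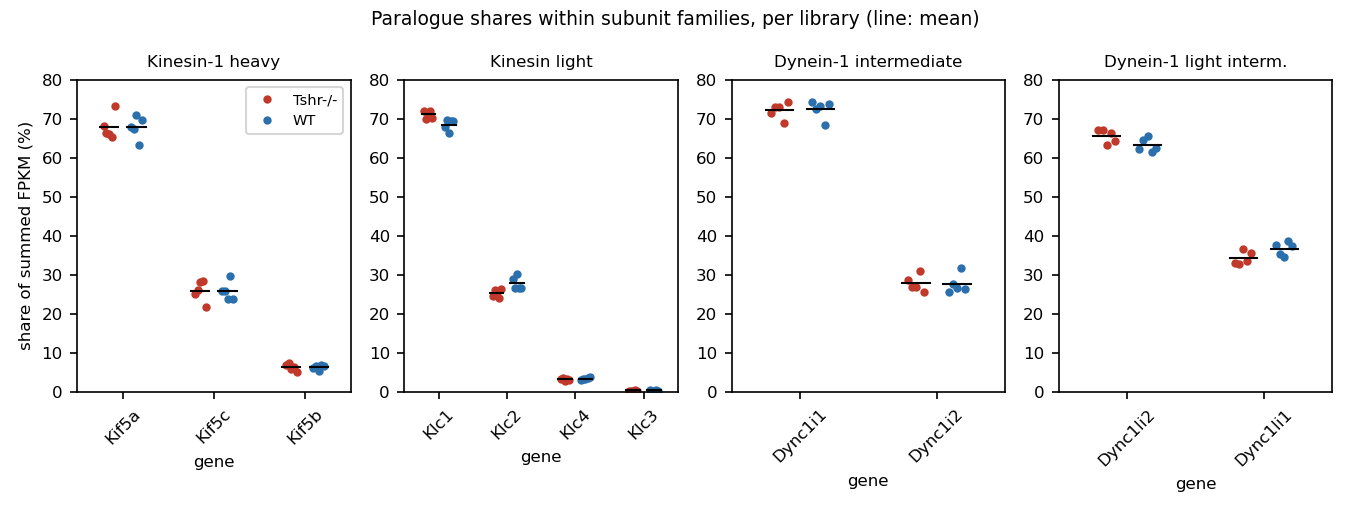
Share of each gene in the summed FPKM of its family (y axis, percent) by gene (x axis), Tshr-/- in red left of WT in blue, 1 point per library and a line at the mean. Klc1 and Klc2 shares do not overlap between genotypes, and the other families shown do.

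Kinesin-2 works as a heterotrimer of Kif3a with Kif3b or Kif3c and an adaptor, or as a homodimer of Kif17. The class has 4 measured genes, of which 0 were called. Kif3a (ENSMUSG00000018395, chr11:53567379-53601967, plus strand), shared by all the trimers, had 44.6, 42.1, 40.5, 38.2 and 37.7 FPKM in Tshr-/- and 38.8, 41.6, 38.4, 38.3 and 38.9 FPKM in WT. The genotypes overlapped (log2 difference 0.05 ± 0.05 SE, limma adjusted p = 0.729). Kif3b, the partner best known from intraflagellar transport, had 16.4, 14.99, 17, 16.2 and 15.7 FPKM in Tshr-/- and 15.6, 15.3, 14.3, 14.95 and 17.2 FPKM in WT (0.06 ± 0.06, limma adjusted p = 0.717). The highest value of Kif3b was in WT and 4 Tshr-/- libraries lay above 4 of the WT libraries. Kif3c, the neuron-enriched partner, averaged 33.0 ± 3.14 FPKM in Tshr-/- and 34.6 ± 2.89 FPKM in WT, above Kif3b in every library. Kif17, which carries NMDA receptor vesicles into dendrites, averaged 6.37 ± 0.440 FPKM in Tshr-/- and 6.61 ± 0.763 FPKM in WT. Its locus overlaps Sh2d5 on the same strand, which stood at 25.6 FPKM, so its reads would be less certain in any shared exon.

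Kinesin-3 motors carry vesicle precursors and endosomes, and 0 of the 6 measured genes were called. Kif1a (ENSMUSG00000014602, chr1:93015464-93101951, minus strand), the motor of synaptic vesicle precursors and dense-core vesicles, had 141, 140.3, 120.5, 102 and 141 FPKM in Tshr-/- and 131, 133, 140.4, 118 and 129 FPKM in WT. Library 4 was the lowest in both genotypes, and the genotypes overlapped (log2 difference -0.02 ± 0.09 SE, limma adjusted p = 0.940). Kif1b, which moves mitochondria and vesicle precursors, averaged 49.5 ± 2.93 FPKM in Tshr-/- and 49.1 ± 2.47 FPKM in WT, a log2 difference of 0.01, the smallest in size of the 39. Kif1c, a motor of dense-core vesicles, averaged 24.04 ± 2.65 FPKM in Tshr-/- and 25.1 ± 1.02 FPKM in WT. The endosome motor Kif13a averaged 4.62 ± 0.578 FPKM in Tshr-/- and 4.54 ± 0.514 FPKM in WT. Kif13b averaged 3.77 ± 0.625 FPKM in Tshr-/- and 4.20 ± 0.464 FPKM in WT.

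Kif16b (ENSMUSG00000038844, chr2:142617474-142901531, minus strand), which moves early endosomes, had the second smallest p of the 39. It had 1.53, 1.47, 1.37, 1.53 and 1.54 FPKM in Tshr-/- and 1.22, 1.41, 1.34, 1.14 and 1.30 FPKM in WT. Of the Tshr-/- libraries 4 lay above all WT libraries, and library 3 lay below WT library 2. The log2 difference was 0.20 ± 0.09 (SE, 95% interval 0.01 to 0.39, limma adjusted p = 0.354).

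The kinesin-11 pair held the only gene whose genotypes did not overlap. Kif26b (ENSMUSG00000026494, chr1:178529125-178939200, plus strand), an atypical kinesin studied in kidney development and cell adhesion, had 1.70, 1.97, 1.99, 2.04 and 1.996 FPKM in Tshr-/- and 2.66, 2.26, 2.67, 2.23 and 2.33 FPKM in WT. Every Tshr-/- library lay below every WT library. Such complete separation was seen in 1 of the 39 genes, or 2.56%, against 2.68% of all tested genes (1.76% lower and 0.911% higher in Tshr-/-), so the share was near that of the whole table. The log2 difference was -0.31 ± 0.08 (SE, 95% interval -0.49 to -0.13, limma adjusted p = 0.194). Over the 21 alternatives limma gave adjusted p values from 0.135 to 0.455 and log2 differences from -0.36 to -0.22. Its paralogue Kif26a, whose P-loop codons likewise depart from the usual form, averaged 1.78 ± 0.316 FPKM in Tshr-/- and 1.80 ± 0.143 FPKM in WT (log2 difference -0.03 ± 0.12 SE, limma adjusted p = 0.943). Summed dentate granule markers were likewise lower in every Tshr-/- library than in every WT library (means 126 ± 14.4 FPKM in Tshr-/- and 177 ± 21.1 FPKM in WT), with 10 of 10 genes lower and 0 called. Their part in the Kif26b values was not tested.

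**Figure D4:**
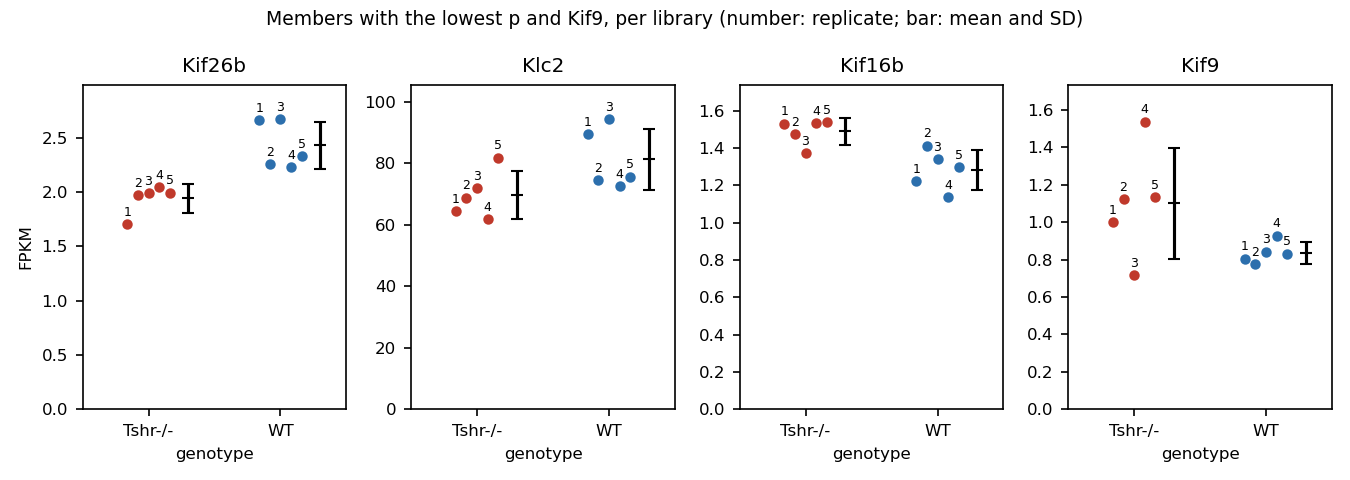
FPKM (y axis from 0) by genotype (x axis) for the 3 members at an unadjusted p below 0.05 and for Kif9. Points are libraries with their replicate number, and bars show mean and SD. Kif26b separates the genotypes, at 1.70 to 2.04 FPKM in Tshr-/- and 2.23 to 2.67 FPKM in WT.

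The measured kinesins of cilia and cell division had low levels. Kif9 (ENSMUSG00000032489, chr9:110476958-110525179, plus strand), a motor of motile cilia, had 0.999, 1.12, 0.716, 1.54 and 1.13 FPKM in Tshr-/- and 0.805, 0.775, 0.841, 0.928 and 0.832 FPKM in WT. Tshr-/- libraries held both the 4 highest and the single lowest value, and the log2 difference of 0.33 ± 0.17 (SE, limma adjusted p = 0.440) was the largest in size of the 39. The 14 ependymal and ciliated cell markers summed to 16.7, 31.5, 9.01, 34.3 and 17.7 FPKM in Tshr-/-. In WT they summed to 8.45, 16.3, 16.8, 14.5 and 8.13 FPKM. Tshr-/- library 4 was highest for both Kif9 and these markers. Of the 10 of them that were tested, 10 had higher estimates in Tshr-/- and 0 were called. A limma p below 0.05 was found for 2, or 20% against 4.65% of all tested genes higher at that level. Without Tshr-/- library 4 the log2 difference of Kif9 was 0.21. Leaving out the highest Kif9 library lowers the estimate whatever the cause. Kif19a, which shortens motile cilia, had 0.888, 1.52, 0.971, 1.52 and 1.46 FPKM in Tshr-/- and 1.24, 1.31, 1.36, 1.08 and 0.839 FPKM in WT (log2 difference 0.10 ± 0.18 SE, limma adjusted p = 0.849). The genotypes of Kif19a and Kif22 overlapped, and the lowest Kif19a library was WT while the lowest Kif22 library was Tshr-/-. Kif22, a chromosome-arm motor of dividing cells, had 0.577, 0.707, 0.697, 0.480 and 0.619 FPKM in Tshr-/- and 0.626, 0.558, 0.595, 0.871 and 0.639 FPKM in WT (-0.08 ± 0.17, limma adjusted p = 0.872). The part of ciliated cells in these values was not tested.

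In kinesin-4, Kif21a and Kif21b slow microtubule growth, Kif7 acts in Hedgehog signalling at the primary cilium, and Kif27 is its paralogue. None of these 4 genes was called. Kif21a had 37.9, 40.5, 37.3, 33.9 and 36.5 FPKM in Tshr-/- and 35.6, 39.5, 36.4, 34.2 and 37.7 FPKM in WT (log2 difference 0.02 ± 0.06 SE, limma adjusted p = 0.902). Kif21b had 6.93, 6.66, 7.85, 6.50 and 8.96 FPKM in Tshr-/- and 6.67, 6.78, 7.28, 7.24 and 6.91 FPKM in WT (0.07 ± 0.09, limma adjusted p = 0.764). For both genes the Tshr-/- libraries spread further than the WT libraries and held the extremes at either end. Kif7 averaged 0.826 ± 0.125 FPKM in Tshr-/- and 0.794 ± 0.0670 FPKM in WT. Kif27 averaged 0.614 ± 0.205 FPKM in Tshr-/- and 0.558 ± 0.0756 FPKM in WT. Kif2a, the kinesin-13 that takes microtubule ends apart and trims axon branches, had 11.1, 10.8, 10.7, 10.1 and 10.1 FPKM in Tshr-/- and 9.57, 10.3, 9.80, 10.5 and 10.4 FPKM in WT (0.06 ± 0.05, limma adjusted p = 0.625). Kif1bp, which binds several kinesins and blocks their hold on microtubules, had 31.2, 29.4, 34.5, 33.7 and 32.3 FPKM in Tshr-/- and 35.3, 33.4, 31.8, 33.6 and 34.7 FPKM in WT (-0.07 ± 0.05, limma adjusted p = 0.610). Kif2a and Kif1bp overlapped between the genotypes. The locus of Kif2a overlaps that of Dimt1 on the opposite strand (3.73 FPKM).

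Dynein-1 carries cargo back to the cell body with a heavy chain that holds the motor and with intermediate and light intermediate chains that bind cargo adaptors. None of its 5 genes was called. Dync1h1 (ENSMUSG00000018707, chr12:110601452-110666945, plus strand), the heavy chain, had 43.8, 41.8, 43.2, 40.6 and 46.3 FPKM in Tshr-/- and 45.2, 42.8, 47.3, 46.1 and 46.7 FPKM in WT. The lowest 2 libraries were Tshr-/- and the highest was WT, with overlap between them (log2 difference -0.08 ± 0.05 SE, limma adjusted p = 0.506). Dync1i1, the neuronal intermediate chain, averaged 35.2 ± 2.95 FPKM in Tshr-/- and 33.8 ± 2.55 FPKM in WT. Dync1i2, its widely expressed paralogue, averaged 13.5 ± 0.607 FPKM in Tshr-/- and 12.8 ± 0.611 FPKM in WT. Dync1i1 made up 72.2% ± 2.07 of the intermediate chains in Tshr-/- and 72.4% ± 2.38 in WT. Among light intermediate chains, Dync1li1 averaged 23.6 ± 1.76 FPKM in Tshr-/- and 24.8 ± 1.28 FPKM in WT. Dync1li2 had 52.1, 50.5, 40.6, 41.4 and 42.1 FPKM in Tshr-/- and 42.0, 44.9, 43.2, 40.6 and 43.5 FPKM in WT. Its highest values, in Tshr-/- libraries 1 and 2, fell in the libraries named above as high in thalamic markers, and the part of that tissue was not tested. Over the 6 libraries low in those markers the log2 difference of Dync1li2 was -0.02, against 0.08 over all 10. That choice leaves out the highest 2 libraries of each genotype for this gene, so it lowers both means by itself. It cannot tell why the values differ.

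**Figure D5:**
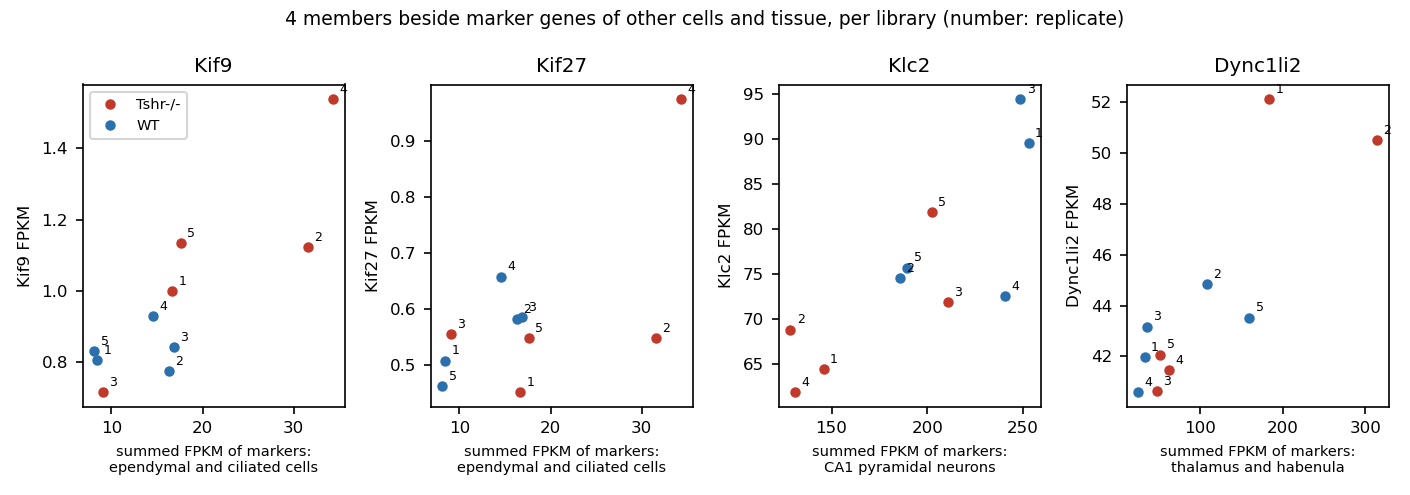
FPKM of 4 members (y axes) beside the summed FPKM of marker genes (x axes), 1 point per library with its replicate number, Tshr-/- in red and WT in blue. Tshr-/- library 4 is highest for Kif9, Kif27 and ependymal markers, and Tshr-/- libraries 1 and 2 are highest for Dync1li2 and thalamic markers.

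Dynactin links dynein to cargo and makes it processive, and 0 of its 6 measured genes were called. Dctn1 (ENSMUSG00000031865, chr6:83165920-83200117, plus strand), the arm that holds the microtubule, had 66.2, 67.7, 73.7, 66.0 and 78.7 FPKM in Tshr-/- and 85.2, 71.1, 84.4, 72.8 and 75 FPKM in WT. The lowest 3 libraries were Tshr-/- and the highest 2 were WT libraries 1 and 3, as for Klc2 (log2 difference -0.14 ± 0.07 SE, limma adjusted p = 0.435). The other subunits differed by less. Dctn2, or dynamitin, averaged 37.9 ± 1.02 FPKM in Tshr-/- and 36.7 ± 1.34 FPKM in WT. Dctn3, the small shoulder subunit, averaged 70.9 ± 3.12 FPKM in Tshr-/- and 70.2 ± 4.36 FPKM in WT. Its locus overlaps that of Il11ra1 on the opposite strand (4.53 FPKM). The pointed-end subunits Dctn4, Dctn5 and Dctn6 averaged 7.93 ± 0.391, 21.0 ± 1.13 and 17.97 ± 0.661 FPKM in Tshr-/- and 8.07 ± 0.473, 21.2 ± 1.22 and 17.6 ± 0.894 FPKM in WT.

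A further 15 genes matched the names but lay below 0.5 FPKM, and they are no part of the counts above. Most are kinesins of cell division, with Kif20a and Kif11 highest at 0.380 ± 0.0507 and 0.438 ± 0.0570 FPKM in Tshr-/- and 0.434 ± 0.0581 and 0.376 ± 0.149 FPKM in WT. Kif2b was listed at 0 in all libraries and Kif12 never exceeded 2 reads. Tested without a filter on low values, 0 of the 14 with any read were called by limma. The smallest p was that of Kif2c, a kinesin-13 of mitosis, with 3 to 18 reads a library. It averaged 0.123 ± 0.0298 FPKM in Tshr-/- and 0.0556 ± 0.0242 FPKM in WT (log2 difference 0.52 ± 0.17 SE, limma adjusted p = 0.402). The 15 markers of dividing cells summed to 4.97 to 7.04 FPKM in Tshr-/- and 4.17 to 5.08 FPKM in WT, and their part in Kif2c was not tested.

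Genes that work with the motors gave the same picture of 0 calls, in 4 lists that hold none of the 39. Of 30 measured motor adaptors and cargo linkers, 7 had a limma p below 0.05, all lower in Tshr-/-, which is 23.3% against 8.38% of all tested genes lower at that level. Neuronal marker lists leaned lower too, to differing degrees. Of 12 markers of neurons in general, 10 had lower estimates in Tshr-/-, or 83.3% against 53.3% of all tested genes. A limma p below 0.05 was found for 5 of these, or 41.7% against 8.38% of all tested genes lower at that level. The list summed to 1447 ± 83.6 FPKM in Tshr-/- and 1575 ± 68.1 FPKM in WT (SD, n = 5 each). Also lower at that level were 7 of 10 dentate granule markers (70%), 4 of 9 CA1 markers (44.4%) and 2 of 10 CA3 and CA2 markers (20%). Of the CA3 and CA2 markers 6 had lower and 4 higher estimates, with a median log2 difference of -0.04. Glial lists were mixed. Of 10 microglia markers 8 had lower estimates (80%), 1 of them at that level (10%). Of 10 astrocyte markers 5 had lower estimates (50%), 2 of them at that level (20%). Of 12 oligodendrocyte markers 4 had lower estimates, 0 of them at that level. None of the markers in these lists was called. Their part in the adaptor values was not tested. Bicd2, which ties dynein to vesicles, had 13.5, 14.3, 14.8, 14.1 and 14.1 FPKM in Tshr-/- and 16.7, 15.3, 16.1, 16.9 and 15.9 FPKM in WT, without overlap (log2 difference -0.19 ± 0.05 SE, limma adjusted p = 0.176). Bicd2 was the only 1 of the 30 without overlap, against 2.68% of all tested genes (1.76% lower in Tshr-/-). The kinesin-1 scaffold Mapk8ip2 averaged 84.7 ± 8.07 FPKM in Tshr-/- and 98.2 ± 9.97 FPKM in WT (-0.21 ± 0.08, limma adjusted p = 0.326). Of 21 dynein regulators, light chains and other dynactin parts, 2 had a limma p below 0.05, both lower in Tshr-/-. That is 9.52%, near the 8.38% of all tested genes lower at that level. The light chain Dynll1 had 59.1, 46.2, 60.9, 61.8 and 57.5 FPKM in Tshr-/- and 70.1, 63.1, 70.2, 69.1 and 63.7 FPKM in WT (log2 difference -0.24 ± 0.08 SE, limma adjusted p = 0.259). The dynein regulator Ndel1 had 21.4, 20.5, 20.6, 19.02 and 21.4 FPKM in Tshr-/- and 21.97, 21.96, 23.3, 21.8 and 23.4 FPKM in WT (-0.13 ± 0.05, limma adjusted p = 0.301). For these 2 of the 21 genes alone, every Tshr-/- library lay below every WT library, as for 1.76% of all tested genes.

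Of 32 microtubule track genes, 4 had a limma p below 0.05, 1 higher and 3 lower in Tshr-/-, which is 12.5% against 13% of all tested genes. The higher one was Hdac6, a deacetylase of tubulin. It had 7.29, 7.05, 7.55, 7.27 and 7.41 FPKM in Tshr-/- and 6.48, 6.08, 6.76, 6.95 and 6.32 FPKM in WT, without overlap (log2 difference 0.16 ± 0.05 SE, limma adjusted p = 0.231). Map4, a microtubule-stabilising protein, had 43.3, 44.6, 44.1, 42.7 and 40.2 FPKM in Tshr-/- and 54.2, 49.7, 51.7, 51.2 and 48.7 FPKM in WT, without overlap (log2 difference -0.25 ± 0.05 SE, limma adjusted p = 0.106). Hdac6 and Map4 were the only 2 of the 32 without overlap. Of all tested genes, 0.911% lay higher and 1.76% lower in Tshr-/- without overlap. Map1a, a dendritic microtubule protein, averaged 98.7 ± 9.24 FPKM in Tshr-/- and 119.7 ± 6.79 FPKM in WT (-0.28 ± 0.07, limma adjusted p = 0.179). Of 9 measured genes for other kinesins and dynein-2, limma gave 0 at a p below 0.05. The smallest p values were those of Kifc5b, at 0.837 ± 0.152 FPKM in Tshr-/- and 1.02 ± 0.230 FPKM in WT and uncertain because of its near-identical paralogue Kifc1, and of Dync2li1, at 9.13 ± 0.826 FPKM in Tshr-/- and 8.63 ± 0.222 FPKM in WT (limma adjusted p = 0.552 and 0.635). The median log2 differences of the 4 lists were -0.03, -0.02, -0.05 and 0.06 in the order given, against 0.02 for the 39 motor and dynactin genes.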

How the data were processed

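The submitters' processing notes name HISAT2 2.0.5, featureCounts 1.5.0-p3 and mm10, and the authors deposited FPKM values for 52636 genes in 10 libraries. Reads were rebuilt from the deposited FPKM multiplied by gene length, which in each library came in even steps: 100% of values above 0 lay within 0.01 of a whole read. The annotation release, the treatment of reads matching several genes and the library total behind FPKM are not given in the sources used here.

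Genotypes were compared with limma 3.58.1 in R 4.3.3 on log2(FPKM + 0.1), letting the variance follow the mean level. The 15471 genes averaging 0.5 FPKM or more entered, and p-values were adjusted by Benjamini-Hochberg over all of them. The steps were run on simulated reads with known changes. Those were drawn for each gene on its own, without the tissue differences that these libraries show. The run therefore cannot show how the test behaves with such differences. P-values set the genotype difference against the spread between libraries, and the labels do not say whether each library is 1 mouse. SD is over 5 libraries. Alternatives were pseudocounts of 1 and 0.01, no filter, a mean of at least 1 FPKM, median-ratio and quantile scaling, no trend, the replicate number as a block, protein-coding genes alone, the 6 libraries low in thalamic markers, leaving out each library, and voom on rebuilt reads with the library sizes implied by the authors' FPKM steps.

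The members, lists and tests were chosen with earlier results of these data known. Every member was named; per-library values were given for the most abundant member and that with the smallest p in each class, and for any member whose genotypes did not overlap. Of each list the 2 genes with the smallest p were named. Dync1li2, Klc3, Kif17, Kif2a, Dctn3, Kif2c, Kif20a, Kif11, Kif12 and Kif2b were given further remarks, and Hdac6 was named, after their values were seen. Kif1bp was put in a class of its own after the files were read. The P-loop windows came from GENCODE vM21 transcripts, and some of them are not reported here.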

Additional observations from a re-analysis of the deposited data

Results flagged for a closer look

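Of 78 groups of 5 libraries (39 genes in 2 genotypes), 7 held a library whose gap to the nearest other library exceeded 0.71 of the group's range (Dixon's 95% limit), while chance flags about 1 in 20. Tshr-/- library 4 was high for Klc3 at 1.38 FPKM against 0.590 to 0.761 FPKM in the other Tshr-/- libraries, and for Kif27 at 0.974 FPKM against 0.451 to 0.554 FPKM. Tshr-/- library 1 was low for Kif26b at 1.70 FPKM against 1.97 to 2.04 FPKM, and for Kif7 at 0.610 FPKM against 0.838 to 0.929 FPKM. WT library 2 was high for Kif3a at 41.6 FPKM against 38.3 to 38.9 FPKM, WT library 3 for Kif1c at 26.9 FPKM against 24.3 to 24.9 FPKM, and WT library 4 for Kif22 at 0.871 FPKM against 0.558 to 0.639 FPKM.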

How the results depend on the processing

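None of the 39 genes was called by limma under any of the 21 alternatives, and the lowest adjusted p in any of them was 0.135, for Kif26b with voom. The 10 fits without 1 library gave 0 calls among them each time, 1 to 5 genes at an unadjusted p below 0.05 (8.65% to 15.1% of all tested genes; 1 without Tshr-/- library 1 or 4, 5 without Tshr-/- library 5), 1 to 3 genes without overlap (2.99% to 5.01% of all) and medians from -0.0061 to 0.0279 (log2). The sign of the estimate was the same in all alternatives for 19 of the 39. Quantile normalization moved the median log2 difference from 0.0150 to 0.0433 and gave 2 genes without overlap (2.35% of all tested genes). The 6 libraries low in thalamic markers gave 1 gene at an unadjusted p below 0.05 (9.63% of all) and 3 without overlap (15.8% of all). The genes called in the whole table numbered 2, against 14 with a pseudocount of 0.01, 4 with no filter, 13 at a mean of at least 1 FPKM, 4 with quantile normalization, 1 with no trend, 17 among protein-coding genes, and 0 to 9 without 1 library. It was 3 with the replicate block, which gave 0 of the 39 called and 2 at an unadjusted p below 0.05 (14% of all). Same-numbered libraries correlated from -0.065 to 0.296 in their deviations, and 2 of 5 libraries of either genotype correlated best with their own number. These correlations cannot settle whether equal numbers mark pairs. The causes were not tested. Depth limits genes near 0.5 FPKM.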
